A study of Mus musculus with 12 samples.

Results

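The receptors described here are 8 surface molecules of T cells, namely Cd2, Cd6, Cd28, Icos, Ctla4, Cd27, Thy1 and Cd8b1. They were taken by name, with every probe annotated to them, which gave 17 of the 45274 probes with values and 8 of 8100 measured genes. They were followed in 3 populations of mouse lymphocytes on Illumina bead arrays, with 4 arrays each. ITNK cells are T-to-natural-killer cells labelled as derived from DN3 thymocytes, DN3 is their parental T cell population, and LAK cells are natural killer cells expanded with IL-2. By definition, DN3 thymocytes are CD4- and CD8-negative precursors that are rearranging the beta chain of their receptor.

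One protocol text stands on all 12 samples and does not assign its steps to groups. It describes cells of Cre-ERT2; Bcl11b flox/flox mice, whose Cre becomes active with tamoxifen, treated for 48 h with 1 µM 4-hydroxytamoxifen. It also names 2 genotypes of sorted DN3 thymocytes, Bcl11b CKO/CKO and CKO/+, without saying which sample carried which. These cells were grown on OP9-DL1, a stromal line that presents a Notch ligand, with 100 ng/ml IL-2, and were collected 14 days after the treatment. For splenic ITNK cells the text gives an expansion of 6 to 9 days in 1000 U/ml IL-2, and no sample is labelled splenic. The strain labels run with the groups: DN3 is labelled C57B7, LAK C57B8 and ITNK C57B6. No animal age is given. Separate animals or cultures behind the 4 arrays of a population are not stated, so the p-values rest on a spread between samples that may be technical only.

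CD8 beta pairs with CD8 alpha to form the coreceptor that binds MHC class I beside the T cell receptor. CD2 and CD6 are adhesion and signalling receptors of T cells, and Thy1 is a GPI-anchored glycoprotein of thymocytes and many other lymphocytes. CD28 and ICOS give the costimulatory signal that accompanies antigen, CTLA4 competes with CD28 for the same ligands and restrains the response, and CD27 is a costimulator of the TNF receptor family. CD2 and Thy1 are also carried by mouse natural killer cells, and CD27 marks some stages of their maturation.

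The 12 arrays detected 26.1% to 29.0% of the probes, at a detection p under 0.01. They lay on 2 slides, slide 1 with all LAK arrays and ITNK 1 and 2, slide 2 with all DN3 arrays and ITNK 3 and 4. DN3 against LAK therefore has no comparison within a slide. Checked against defining markers, 6 of 7 annotated T cell markers were detected in DN3 and in ITNK and 5 in LAK, and their summed normalized signal was 17860 to 19176 in DN3, 9561 to 11893 in ITNK and 554 to 926 in LAK. All 7 measured natural killer markers were higher in ITNK and in LAK than in DN3 (summed signal 17383 to 22165 and 19839 to 23540, against 641 to 1209). Of all genes, 23.3% were higher in ITNK and 28.6% in LAK than in DN3. In ITNK against LAK, 4 of these 7 markers were lower, 0 were higher and 3 were not called, where 15.4% of all genes were lower. Their median log2 difference was -1.07. The probes of Ncr1 and Gzmb, both typical of natural killer cells, were detected on 0 of 12 arrays, LAK included, so an undetected probe is read here as not measured rather than as a gene that was off. Of 15 stromal markers 10 were detected in DN3, 9 in ITNK and 1 in LAK, and the sums over the 9 that were measured were 1485 to 4765, 984 to 1454 and 189 to 192. Genes of the DN3 stage summed to 3864 to 5153 in DN3, 731 to 1178 in ITNK and 259 to 311 in LAK. The largest part of the DN3 sum was Bcl11b, the floxed gene, at 11.41 to 11.92 in DN3 and 8.38 to 9.10 in ITNK. The other genes of this list were dimmer in DN3, from Ptcra at 5.67 to 6.03 up to Dntt at 8.52 to 9.17. Rag1 was at 6.36 to 7.11 there. In ITNK against DN3, 6 of the 7 genes were lower and 1 was not called, where 27.9% of all genes were lower. Il2ra was at 6.85 to 7.08 in DN3 and at 6.71 to 7.27 in ITNK. Gamma-delta T cell genes summed to 3697 to 4053 in DN3, 4339 to 5239 in ITNK and 93 to 165 in LAK. Of the 3 measured, 1 was higher in ITNK than in DN3, 1 lower and 1 not called, with a median of -0.26. Of all genes 23.3% were higher and 27.9% lower. Cd163l1 was at 10.45 to 10.90 in DN3 and 11.46 to 11.66 in ITNK, Blk at 6.97 to 7.42 and 5.82 to 6.23. Trgv4 was at 10.96 to 11.08 and 10.48 to 10.97. The 1 measured erythroid gene, Hba-a1, was 2.91 higher in ITNK than in DN3 (adjusted p = 9.56e-08). The part of stromal RNA, or of any of these other cells, in the receptor values was not tested.

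Promoter sequences are shown for Ctla4 and Cd27, a CD28 family member and a TNF receptor family member whose levels both ran from DN3 down to LAK. Each window covers 250 bases before and 50 bases from the gene's start, from RefSeq on build GRCm38.p6, written 5′ to 3′ on the gene's strand, at chr1:60908775-60909074 (plus strand) for Ctla4 and chr6:125236978-125237277 (minus strand) for Cd27. Capitals mark matches, on either strand, to the E-box CANNTG bound by E proteins, the TCF/LEF core CTTTGA or the NFAT core GGAAAA.
Ctla4: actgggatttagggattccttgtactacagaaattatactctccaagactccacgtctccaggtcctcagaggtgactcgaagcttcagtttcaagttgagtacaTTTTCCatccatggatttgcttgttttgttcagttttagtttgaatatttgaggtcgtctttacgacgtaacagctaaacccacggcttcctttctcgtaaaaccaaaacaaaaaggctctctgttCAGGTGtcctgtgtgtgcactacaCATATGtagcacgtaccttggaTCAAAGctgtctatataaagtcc
Cd27: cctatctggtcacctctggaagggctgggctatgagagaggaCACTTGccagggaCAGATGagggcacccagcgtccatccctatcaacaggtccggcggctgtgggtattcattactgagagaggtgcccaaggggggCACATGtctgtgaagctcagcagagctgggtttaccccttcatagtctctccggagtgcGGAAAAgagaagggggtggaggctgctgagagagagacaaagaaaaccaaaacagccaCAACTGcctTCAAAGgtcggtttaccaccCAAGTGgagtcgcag
The Ctla4 window held 2 E-boxes, 1 TCF/LEF core and 1 NFAT core, and the Cd27 window held 5, 1 and 1. None of the marked matches overlapped another. Among all 32851 windows in the table, 72.3% held an E-box, 16% the TCF/LEF core and 23.4% the NFAT core. Neither window held the RUNX core TGTGGT, the GATA core AGATAA or the AP-1 site TGACTCA, which 16.8%, 11.2% and 5.20% of all windows held. These matches are letters in a window, not measured binding sites.

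Most of these receptors were carried at a lower level by ITNK than by DN3 and at a higher level than by LAK. In ITNK against DN3, Cd6, Cd2, Cd8b1, Ctla4 and Cd27 fell, with log2 differences of -1.35 to -3.07, Icos and Cd28 rose, and Thy1 did not pass the test. A gene is counted by its brightest probe, and it passes at an adjusted p under 0.05 in limma over the 13571 probes kept. Of the 8100 genes, 51.2% passed between ITNK and DN3 (23.3% up and 27.9% down in ITNK), and the receptors were chosen with such results known. Against LAK, 7 of the 8 were higher in ITNK, Icos did not pass, and none was lower, where 33.0% of all genes passed, 17.6% higher and 15.4% lower. In LAK against DN3, 6 were lower and Icos and Cd28 higher, where 60.4% of all genes passed, 31.8% lower and 28.6% higher. The median log2 difference of the 8 was -1.41, 0.99 and -3.00 in these comparisons, against -0.05, -0.01 and -0.02 over all genes. Arrays did not overlap between the 2 groups for 8 of the 8 in ITNK against DN3, 7 in ITNK against LAK and 8 in LAK against DN3, where this held for 47.8%, 31.8% and 56.4% of all genes. The comparisons share arrays pairwise, so their values are set side by side and not counted as separate evidence. In bulk RNA, fewer cells carrying a receptor and less RNA of it per cell cannot be told apart.

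**Figure D1:**
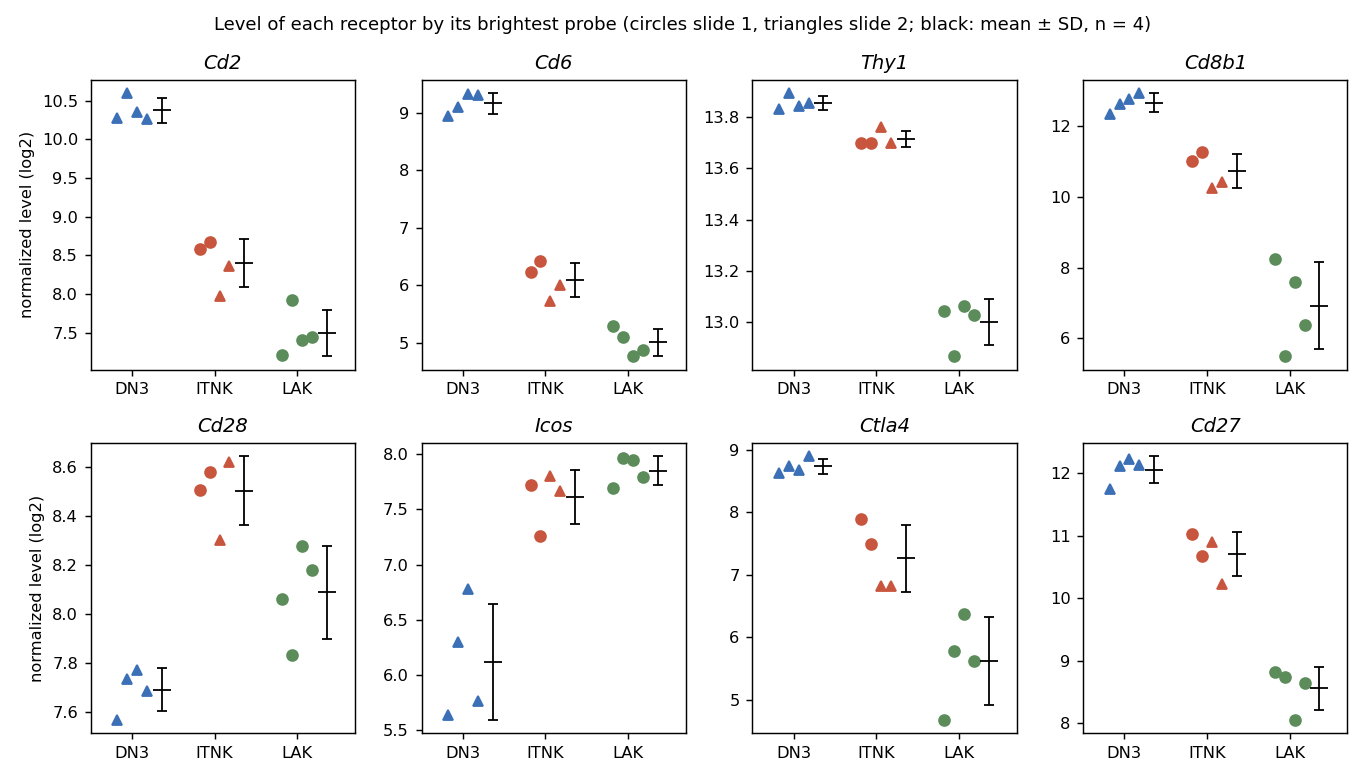
Normalized level (log2) of each of the 8 receptors by its brightest probe on every array, with circles for slide 1, triangles for slide 2 and the mean ± SD (n = 4) in black; each panel has its own vertical range, which does not start at 0. Cd2, Cd6, Cd8b1, Ctla4 and Cd27 step down from DN3 to ITNK and from ITNK to LAK, while Icos and Cd28 are lowest in DN3. Thy1 is lowest in LAK, and its ITNK minus DN3 difference of -0.14 did not pass (adjusted p = 0.187 in limma).

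Cd6, a scavenger-type receptor that binds ALCAM, had the largest fall of the 8 in ITNK against DN3. Its brightest probe was at 8.93, 9.10, 9.31 and 9.30 on the DN3 arrays, at 6.22, 6.41, 5.72 and 6.01 on the ITNK arrays, and at 5.28, 5.10, 4.76 and 4.88 on the LAK arrays. The 3 groups did not overlap, and the LAK values lay near background, with detection on 2 of 4 arrays. In ITNK against DN3 Cd6 fell by 3.07 (SE 0.16, adjusted p = 2.92e-09 in limma), which left 11.9% of the DN3 level. ITNK remained 1.08 above LAK (SE 0.16, adjusted p = 1.04e-04).

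Of the other 3 Cd6 probes, 2 gave nearly the same fall in ITNK, -2.93 and -3.00. One of these was detected on no LAK array, where it was at least 13.2-fold lower than in DN3 and at least 1.73-fold lower than in ITNK. The remaining probe was detected on 0 of 12 arrays. On slide 2 alone the brightest probe fell by 3.30 (adjusted p = 2.94e-06), and on slide 1 alone ITNK was 1.31 above LAK (adjusted p = 9.16e-04).

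Cd2, the receptor for CD48 in mice, followed the same order. It was at 10.28, 10.60, 10.36 and 10.26 in DN3, at 8.59, 8.67, 7.98 and 8.36 in ITNK, and at 7.21, 7.92, 7.41 and 7.45 in LAK. The lowest ITNK array, ITNK 3, stood just above the highest LAK array, LAK 2, and all 12 arrays detected the gene. The difference was -1.97 from DN3 (SE 0.17, adjusted p = 4.19e-07) and 0.91 from LAK (SE 0.17, adjusted p = 8.81e-04), or -2.20 and 1.13 within single slides (adjusted p = 1.86e-05 and 0.00399). The 1 probe of Cd48, its ligand gene, was detected on 0 of 12 arrays.

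Cd8b1 encodes the CD8 beta chain and had the widest span between the populations. Its brightest probe read 12.34, 12.63, 12.78 and 12.95 in DN3 and 11.01, 11.26, 10.26 and 10.43 in ITNK. In LAK it read 8.26, 5.49, 7.60 and 6.37, a spread of 1.24 (SD, n = 4), against 0.26 in DN3 and 0.47 in ITNK. The groups did not overlap. ITNK was 1.93 below DN3 (SE 0.45, adjusted p = 0.00245) and 3.82 above LAK (SE 0.45, adjusted p = 1.38e-05). The ITNK arrays of slide 2 lay below those of slide 1, and within slides the differences were -2.33 (adjusted p = 2.47e-05) and 4.21 (adjusted p = 0.00236). DN3 cells are CD8-negative by definition, while the DN3 arrays read 12.34 to 12.95 for this Cd8b1 probe. Surface CD8 was not measured by these arrays.

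By its brightest probe, Cd8b1 was higher on LAK 1 and LAK 3 than on LAK 2 and LAK 4, and so were Cd3d, Cd3e and Cd3g. Cd3e, a signalling chain of the T cell receptor, was at 7.27, 5.53, 6.86 and 6.11 on LAK 1 to 4, Cd3d at 8.42, 7.58, 8.56 and 7.65, and Cd3g at 7.30, 6.73, 7.16 and 6.46. Of the other measured T cell markers Lat had this order too, at 5.41, 4.62, 4.83 and 4.53. Cd247 and Trat1 did not: Cd247 was at 7.67, 7.38, 7.35 and 7.24, and Trat1, undetected in LAK, at 4.67, 4.41, 4.41 and 4.40. Nor did the other Cd8b1 probes, which read 5.21, 4.53, 4.83 and 5.02 (ILMN_2664929) and 9.01, 8.55, 8.37 and 8.65 (ILMN_1257694). The summed T cell markers were 926, 557, 851 and 554 on the 4 LAK arrays. The part of T cells among the LAK cells in this spread was not tested.

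The 3 Cd8b1 probes disagreed in size. A second probe, ILMN_2664929, differed by -2.21 between ITNK and DN3 (adjusted p = 1.84e-06) and was detected on 1 of 4 LAK arrays. The other one, ILMN_1257694, moved less, with means of 9.18 ± 0.08 in DN3, 8.77 ± 0.18 in ITNK and 8.65 ± 0.27 in LAK (SD, n = 4 each). Its fall of 0.41 in ITNK passed (adjusted p = 0.0193) but did not with a term for the slide (-0.37, adjusted p = 0.0901), with arrays scaled to 1 median (-0.33, adjusted p = 0.0646), without ITNK 2 (-0.35, adjusted p = 0.0592) or without ITNK 4 (-0.37, adjusted p = 0.0519). Between ITNK and LAK this probe differed by 0.13 (95% interval -0.16 to 0.41, adjusted p = 0.507). Where each probe lies in the transcript is not given in the sources used here. Cd8a, which encodes the partner chain and lies next to Cd8b1 in RefSeq, had 2 probes, and neither was detected on any of the 12 arrays.

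**Figure D2:**
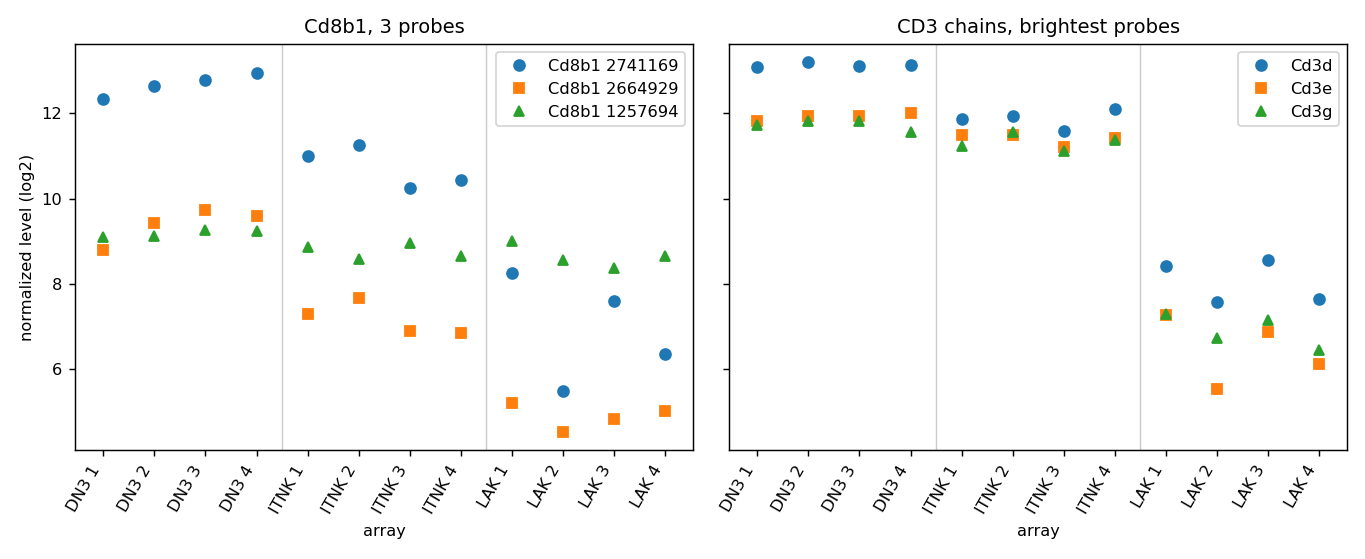
Normalized level (log2) on each of the 12 arrays of the 3 Cd8b1 probes (left) and of the brightest probes of Cd3d, Cd3e and Cd3g (right); points are single arrays. Cd8b1 probe ILMN_1257694 (triangles) differs by -0.54 between LAK and DN3 while the other probes differ by -4.50 and -5.75, and LAK 1 and LAK 3 stand above LAK 2 and LAK 4 for the brightest Cd8b1 probe and for the CD3 chains.

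Thy1 had a very bright probe in every population, among the 146 brightest of 45274 on each array. It was at 13.83, 13.89, 13.84 and 13.86 in DN3 and at 13.70, 13.70, 13.76 and 13.70 in ITNK. It was lower in LAK, at 13.05, 12.87, 13.07 and 13.03. The groups did not overlap, yet the ITNK minus DN3 difference of -0.14 (95% interval -0.32 to 0.04) did not pass (adjusted p = 0.187). Arrays scaled to 1 median gave 0.01 in place of it (adjusted p = 0.968), so the sign of this difference rests on the scaling, and the unnormalized signals ran the other way, with means of 11314 in DN3 and 13714 in ITNK. After normalization LAK was below both, with a difference of -0.85 from DN3 (adjusted p = 8.43e-07) and with ITNK 0.71 above it (SE 0.09, adjusted p = 1.62e-05). Scaling to 1 median made the LAK minus DN3 difference -0.54 (adjusted p = 3.51e-04), and the unnormalized signals of these groups overlapped, at 9533 to 11688 in LAK and 10117 to 12420 in DN3. The other Thy1 probe was detected on 3 of 12 arrays, all near background, and was not tested.

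Cd28, Ctla4 and Icos are related immunoglobulin-type receptors and, in RefSeq, direct neighbours in that order on chromosome 1. In ITNK against DN3 the outer genes rose and the middle gene fell. Cd28 was at 7.57, 7.74, 7.77 and 7.69 in DN3, at 8.51, 8.58, 8.30 and 8.62 in ITNK, and at 8.06, 7.84, 8.28 and 8.18 in LAK. It was highest in ITNK, with no overlap between any 2 groups. The ITNK level was 0.81 above DN3 (SE 0.11, adjusted p = 4.31e-05), or 1.75-fold, and 0.77 above it on slide 2 alone (adjusted p = 0.00182).

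Above LAK the ITNK level of Cd28 stood by 0.41 (SE 0.11, adjusted p = 0.0124). This call was lost on slide 1 alone, where the difference was 0.45 (adjusted p = 0.0681). LAK was 0.40 above DN3 (SE 0.11, adjusted p = 0.00789), and that call was lost once the slide entered the fit (0.32, adjusted p = 0.226). Cd28 was measured by 1 probe.

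Icos, the inducible costimulator, was at 5.64, 6.30, 6.78 and 5.77 in DN3, at 7.72, 7.26, 7.80 and 7.67 in ITNK, and at 7.69, 7.96, 7.95 and 7.80 in LAK. All DN3 arrays lay below all others, and ITNK and LAK overlapped. Icos rose by 1.49 from DN3 to ITNK (SE 0.21, adjusted p = 4.07e-05), or 2.81-fold, and by 1.61 on slide 2 alone (adjusted p = 0.00244). From LAK it differed by -0.24 (95% interval -0.69 to 0.21, adjusted p = 0.414), and the value was -0.12 without ITNK 2 (adjusted p = 0.711), -0.36 on slide 1 alone (adjusted p = 0.162) and -0.14 in the authors' values (adjusted p = 0.475). The DN3 arrays spread by 0.52 (SD, n = 4), against 0.24 in ITNK and 0.13 in LAK.

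A second Icos probe lay at background, from 4.42 to 5.28, and was detected only on ITNK 2 and ITNK 3. It was not tested. Of the ligand genes, Icosl was detected on up to 2 ITNK arrays and on no other, and Cd80, which binds CD28 and CTLA4, on up to 3 ITNK arrays and on no other. Cd86, another ligand gene of the list, was detected on up to 1 ITNK array, up to 2 LAK arrays and 0 DN3 arrays. These counts are for the best detected probe of each gene in each group.

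Ctla4, the inhibitory relative of CD28, was at 8.63, 8.74, 8.67 and 8.89 in DN3. The ITNK arrays read 7.90 and 7.50 on slide 1 and 6.83 and 6.82 on slide 2. LAK ranged from 4.68 to 6.38, with no detection on LAK 1. The 3 groups did not overlap. From DN3 to ITNK Ctla4 fell by 1.47 (SE 0.30, adjusted p = 9.66e-04), and it was 1.65 above LAK (SE 0.30, adjusted p = 7.37e-04). Within slides these differences were larger, -1.91 (adjusted p = 1.13e-05) and 2.08 (adjusted p = 0.00619).

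Cd27, whose ligand is CD70, was strong in DN3, at 11.75, 12.12, 12.23 and 12.14 by its brightest probe. It was at 11.03, 10.68, 10.90 and 10.22 in ITNK and at 8.81, 8.74, 8.05 and 8.63 in LAK, with no overlap. In ITNK Cd27 fell by 1.35 (SE 0.19, adjusted p = 4.78e-05), to 39.1% of the DN3 level, and LAK lay a further 2.15 lower (SE 0.19, adjusted p = 8.91e-07). Within slides the differences were -1.50 (adjusted p = 6.22e-04) and 2.29 (adjusted p = 1.71e-04). A second probe gave -1.36 and 2.29, and one more, which was dim, gave -0.78 and 0.72, with all 4 differences past the test. The 1 probe of Cd70 was detected on 0 of 12 arrays.

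**Figure D3:**
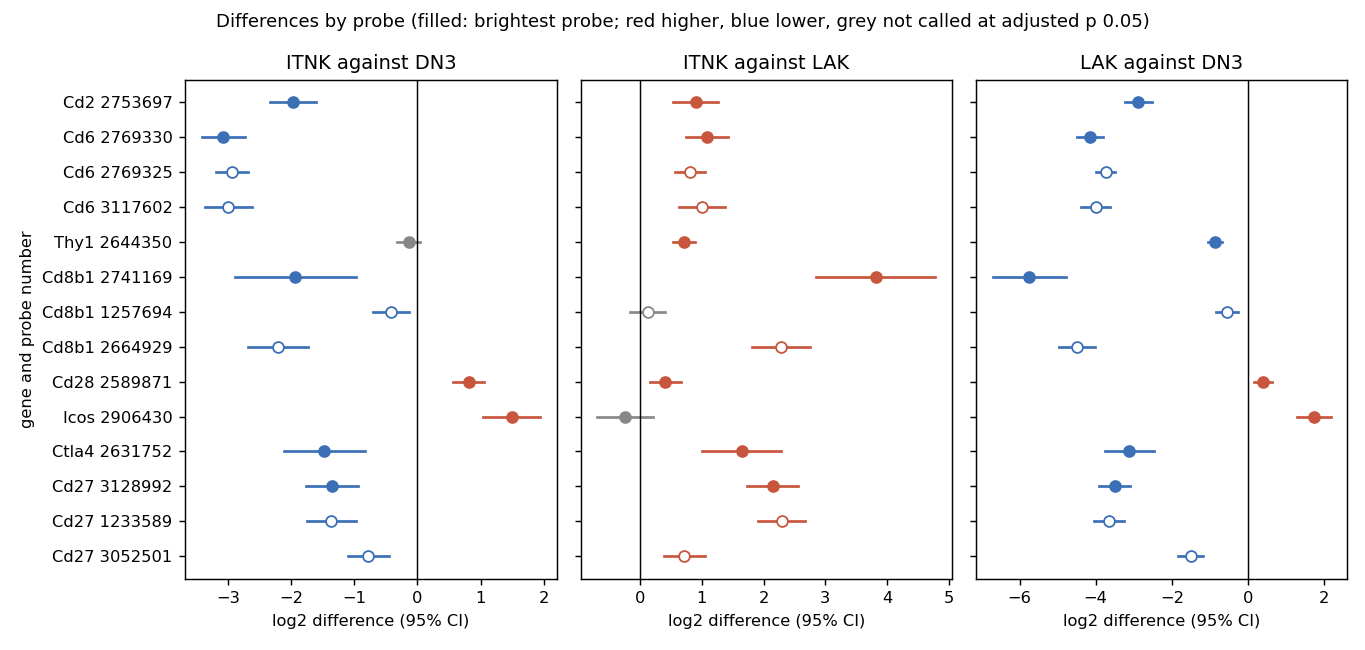
Log2 difference with its 95% interval for the 14 kept probes in the 3 comparisons, with filled points for the brightest probe of each gene. Probes of Cd6 and the brighter probes of Cd27 coincide, those of Cd8b1 do not, and only Cd28 and Icos lie to the right of 0 in ITNK against DN3.

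The deposited processed values, which the authors made by a method not given in the sources used here, kept every direction of the 8 brightest probes. Cd6 fell by 2.29 in ITNK against DN3 on that scale, Cd2 by 1.82, Cd8b1 by 1.92, Cd27 by 1.39 and Ctla4 by 1.09, while Icos rose by 1.02 and Cd28 by 0.67. The differences of Cd6, Ctla4 and Icos were smaller there than on the main scale. They were also smaller without background correction, at -2.41, -1.22 and 1.03. Why the authors' values differ less was not tested. Thy1 differed by -0.23 (adjusted p = 0.0961).

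The distance that ITNK covered from DN3 towards LAK differed by gene. For the 6 receptors with a LAK to DN3 difference of 2-fold or more, the ITNK arrays were placed on the path from the DN3 mean (0%) to the LAK mean (100%). Icos covered 86.1% ± 13.9, Cd6 73.9% ± 7.2 and Cd2 68.5% ± 10.7 (SD, n = 4). Ctla4 covered 47.2% ± 17.0, Cd27 38.7% ± 10.1 and Cd8b1 33.6% ± 8.2. These positions are for the brightest probe of each gene, and the place of Cd8b1 depends on the probe. Its ITNK minus DN3 and LAK minus DN3 differences were -2.21 and -4.50 by ILMN_2664929, and -0.41 and -0.54 by ILMN_1257694. For the dim Cd27 probe they were -0.78 and -1.50. By the brightest probes, all Cd6 and Cd2 arrays, at 59.1% to 83.1%, lay above all Cd27 and Cd8b1 arrays, at 24.6% to 52.5%. The median over the 1620 genes with such a difference was 61.6%. For all 6 receptors the mean of ITNK 3 and 4, on slide 2, was farther along than that of ITNK 1 and 2, by the most for Ctla4 (61.3% against 33.2%). Neither this order nor the slide shift was tested.

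**Figure D4:**
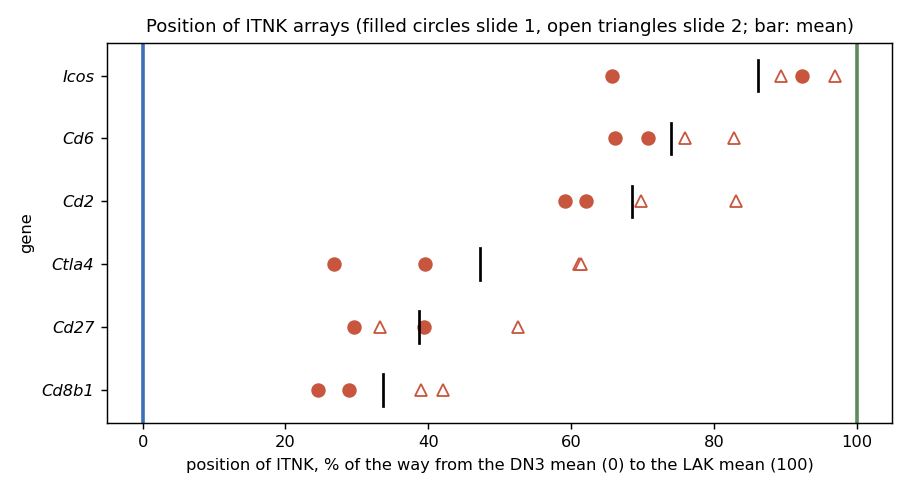
Position of each ITNK array, in percent of the way from the DN3 mean (0) to the LAK mean (100), for the 6 receptors that differed at least 2-fold between LAK and DN3; filled circles are slide 1, open triangles slide 2 and bars the mean of 4 arrays. By the brightest probe of each gene, the only one shown, Icos, Cd6 and Cd2 lie nearer to LAK and Cd27 and Cd8b1 nearer to DN3.

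The receptors also differed in which genes they tracked across the 12 arrays. Among 1978 genes with an SD of at least 0.5, those most like Cd6 were Tpcn1, Mapk8 and Chrna9 (Pearson r 0.99 each), and Tpcn1 and Chrna9 were also among the 3 most like Cd2 (0.99 each), with Klhl24 (0.99). For Thy1 they were Erich1, Cd3e and Dnajc6 (0.99 each), for Cd27 Tmem50b, Trbv13-2 and Vps54 (0.99 each), and for Cd8b1 Actn2 (0.99), Tmem63b and Camk4 (0.98 each). Ctla4 was tracked most closely by Pafah1b3 (0.98), Kctd1 and Stambpl1 (0.97 each). Icos was closest to Lrrc8c (0.98), Pglyrp1 and Cd52 (0.97 each), and Cd28 to Batf3 (0.96), Pkp3 and Osm (0.95 each). These correlations describe 12 arrays in 3 separate groups, so they mainly record the order of the group means. Batf3, a transcription factor, shared the order of Cd28, with group means of 4.89 in DN3, 8.60 in ITNK and 7.26 in LAK.

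The wider receptor families held genes that rose and genes that fell. The gene lists were drawn up with earlier results of these data known, and their counts stand against the 23.3% of all genes that rose and 27.9% that fell in ITNK against DN3. Of 15 other coreceptors and CD2 family or nectin-binding receptors, 10 were measured, and in ITNK against DN3 6 rose and 4 fell. Slamf7 (at least 5.54-fold), Cd244a (2B4, another CD48 receptor, at least 4.32-fold), Cd7 (2.08, SE 0.23, adjusted p = 5.22e-06) and Cd226 (1.82, adjusted p = 1.61e-04), all found on natural killer cells, were the largest rises. Slamf6 (-1.74) and Slamf1 (-1.18) were the largest falls. Relative to LAK, Cd7 was 2.00 higher in ITNK (adjusted p = 1.27e-05), with levels of 8.08 ± 0.19 in ITNK, 6.08 ± 0.51 in LAK and 6.00 ± 0.39 in DN3 (SD, n = 4). Cd5, the neighbour and relative of Cd6, and Cd4 were detected on 0 of 12 arrays by their 1 and 2 probes.

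Among the TNF receptor family costimulators related to Cd27, 5 of 8 were measured, and Tnfrsf9 (4-1BB, 3.49, SE 0.20, adjusted p = 8.79e-09), Tnfrsf18 (GITR, 1.29) and Tnfrsf1b (at least 2.02-fold) rose in ITNK against DN3. Tnfrsf8, detected on no ITNK array and on 1 DN3 array, was at least 1.3-fold lower (adjusted p = 0.0403), a call lost in 12 of 22 alternative settings, with adjusted p from 0.0077 to 0.138 over them. Tnfrsf4 differed by 0.14 (adjusted p = 0.778). Tnfrsf9 thus ran opposite to Cd27, from 6.24 ± 0.38 in DN3 to 9.73 ± 0.21 in ITNK and 10.34 ± 0.36 in LAK (SD, n = 4). Leaving out any 1 of DN3 1, DN3 2, ITNK 2, ITNK 3 or ITNK 4 was enough to lose the Tnfrsf8 call.

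Among inhibitory receptors other than Ctla4, 3 rose in ITNK against DN3 while Ctla4 fell. Of 9 in the list 5 were measured, and Cd160 (3.67, adjusted p = 3.26e-08), Lag3 (3.66, adjusted p = 1.78e-08) and Havcr2 (TIM-3, at least 11.6-fold) rose in ITNK against DN3. Btla was at least 2.14-fold lower. Laptm5, which is in the list but encodes a lysosomal protein and not a surface receptor, differed by -0.24 (adjusted p = 0.0531). The 1 probe of Pdcd1 (PD-1) was detected on 0 of 12 arrays. Of 13 ligand genes 6 were measured, of which Tnfsf14 (LIGHT, 1.38, adjusted p = 8.28e-06), Cd274 (PD-L1, 1.06, adjusted p = 1.22e-04) and Pdcd1lg2 (at least 1.67-fold) rose and 0 fell. Pdcd1lg2 was detected on 2 ITNK arrays and 0 DN3 arrays, near background. Its log2 difference ran from 0.37 to 1.17 over 22 alternative settings, so the bound depends on the processing.

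**Figure D5:**
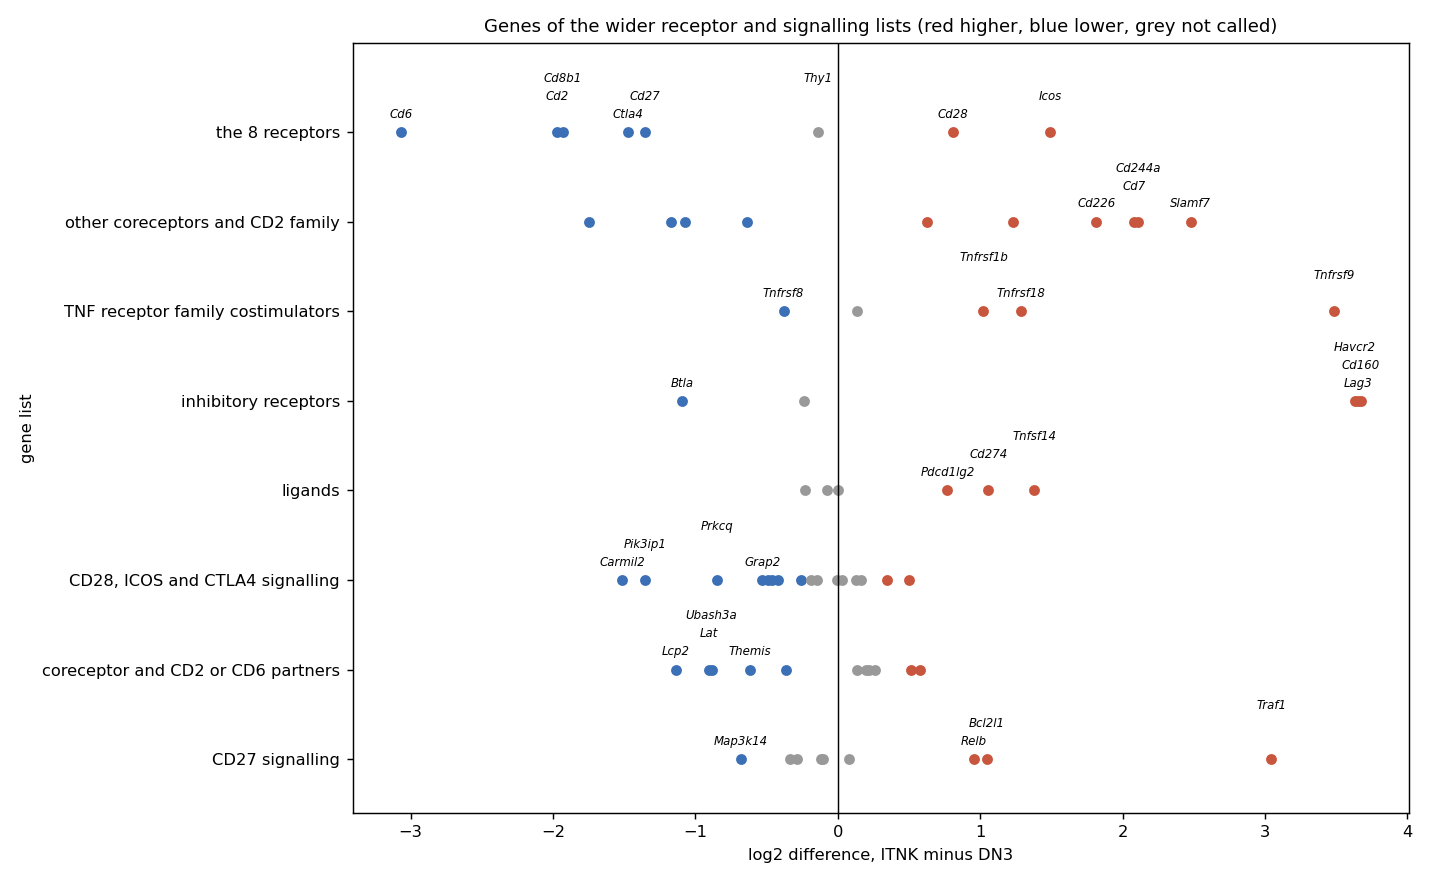
Log2 difference of ITNK minus DN3 for each measured gene of the 8 receptors and of the 7 wider lists, 1 point per gene by its brightest probe. Tnfrsf9, Lag3, Havcr2, Cd160 and Traf1 lie above 3, opposite to Cd6 at -3.07.

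Signalling genes downstream of these receptors are given next. In ITNK against DN3, 2 of 16 measured genes of CD28, ICOS and CTLA4 signalling rose and 8 fell, with a median of -0.23, where 23.3% of all genes rose and 27.9% fell. Of the receptors themselves, Cd28 and Icos rose and Ctla4 fell. Carmil2 (RLTPR, an adaptor that CD28 needs to reach NF-kappaB; -1.51, SE 0.17, adjusted p = 6.67e-06), Pik3ip1 (an inhibitor of PI3K; -1.35, adjusted p = 6.06e-05), Prkcq (PKC theta, -0.85, adjusted p = 1.80e-05) and Grap2 (GADS, -0.53, adjusted p = 0.00328) had the largest falls. Relative to LAK, 4 of these 16 were higher in ITNK and 3 lower, where 17.6% of all genes were higher and 15.4% lower. Trat1, an adaptor that binds the T cell receptor and CTLA4, was at least 62.7-fold higher in ITNK than in LAK (adjusted p = 1.74e-14).

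Of 11 measured partners of coreceptors, CD2 or CD6, 2 rose and 5 fell in ITNK against DN3, while the median was 0.13 and 51.2% of all genes passed. The largest falls were in Lcp2 (SLP-76, which CD6 binds; -1.14, SE 0.14, adjusted p = 9.28e-06), Lat (-0.91, adjusted p = 0.00175), Ubash3a (at least 1.85-fold lower) and Themis (-0.62, adjusted p = 0.0130). Relative to LAK, 4 of the 11 were higher in ITNK and 2 lower, where 17.6% of all genes were higher and 15.4% lower. Lat was 3.21 higher (adjusted p = 1.83e-08) and Themis at least 2.13-fold higher, while Sh2d2a differed by -1.15 (adjusted p = 1.02e-05) and Pstpip1, which binds the CD2 tail, by -0.96 (adjusted p = 3.54e-04). Of 9 measured genes of CD27 signalling 3 rose, Traf1 (3.05, SE 0.26, adjusted p = 3.88e-07), Bcl2l1 (Bcl-xL, 1.05) and Relb (0.96), and Map3k14 (NIK) fell by 0.68, while the median was -0.10; these 4 of 9 compare with 51.2% of all genes.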

How the data were processed

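Total RNA of 12 samples was labelled as biotinylated cRNA for Illumina arrays, per the labels' protocols. The authors deposited an average bead intensity per probe and array, per the file headers, whose medians differ between arrays, and a detection fraction that rises with it, of which 1 minus the value was taken as the detection p-value. The deposited processed values are log2 values whose array medians are 6.16 or 6.17, followed the log2 signals (lowest r 0.998 over kept probes), were not centred per gene, and come from an unstated method. They served as an alternative.

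The neqc function corrected the background (normexp, using the detection values, offset 16) and quantile normalized the arrays (limma 3.58.1, R 4.3.3). Of 45281 probes 7 had no values. The platform annotation gave 1 symbol to 34880 probes, several to 18 and none to 10376, with symbols updated through Entrez numbers to RefSeq. Probes with a detection p under 0.01 on at least 4 arrays were kept (13571 probes, 8100 genes), 14 of the 17 receptor probes among them. The 3 groups were compared in 1 limma fit over 12 arrays, 2-sided, with Benjamini-Hochberg adjustment over 13571 probes. The fit was also run on simulated data with independent arrays and no slide effect. That run cannot speak to the slide layout or the replication of these arrays. The number of arrays limits the precision. Where 1 group never detected a gene, its difference is a bound, written "at least N-fold": the brighter mean over the mean detection floor of the dim arrays (per array the dimmest detected probe, or the measured level where that is greater). The receptors and lists were chosen with earlier results of these data known. Named beside the receptors are, per list and comparison, up to 4 genes with the largest difference past the threshold, and per receptor the 3 genes with the highest correlation. Other genes of the lists are named as undetected or not called, and were chosen after their values were seen. Alternatives covered background, offset, scaling, filter, probe choice, slide, replicate number and each array left out. Scaling to 1 median was added after seeing the data.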

Additional observations from a re-analysis of the deposited data

Results flagged for a closer look

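Among 42 sets of 4 arrays (14 kept receptor probes in 3 groups), 2 held an array far from the other 3, and chance gives about 1 in 20. In the dimmest of the tested Cd6 probes, DN3 1 was at 7.86 while the other DN3 arrays lay at 8.19 to 8.22. For Thy1, ITNK 3 was at 13.76 and the other ITNK arrays all at 13.70, because the probe held rank 64 on each of them and quantile normalization gives equal ranks equal values. On ITNK 3 it held rank 61.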

How the results depend on the processing

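Across 23 alternatives, 908 of 916 differences of receptor probes kept their direction and their side of the threshold, 7 lost their call and 1 changed sign. The sign change was Thy1 in ITNK against DN3, from -0.14 to 0.0056 with arrays scaled to 1 median (neither passed). The lost calls were 5 of Cd8b1 probe ILMN_1257694 (in ITNK against DN3 the 4 given above, and in LAK against DN3 with the slide in the fit, -0.46, adjusted p = 0.141) and 2 of Cd28, given above. With slide as a block 1 receptor, in place of 2, was therefore higher in LAK than in DN3. With only probes detected on all 12 arrays, 3 receptors rather than 5 were lower in ITNK than in DN3, since the Cd6 and Ctla4 probes left the test, and 2705 probes rather than 4307 passed in ITNK against LAK, with fewer probes tested. With 1 probe a gene, 4184, 2727 and 4903 genes passed in ITNK against DN3, ITNK against LAK and LAK against DN3, against 6745, 4307 and 8085 probes. With 1 array left out these counts ran from 5966 to 7042, 3685 to 4282 and 7489 to 8074, and the receptor counts stayed at 2 higher and 5 lower, 7 and 0, and 2 and 6. Without background correction, with an offset of 50 or with the authors' values, differences of dim probes shrank, those of Cd6 between ITNK and LAK from 1.08 to 0.54, 0.63 and 0.54. Replicate numbers are shared between groups, but the deviations of same-numbered arrays correlated at only -0.32 to 0.20, so they were not taken as pairs. With the replicate block 6487, 3992 and 7869 probes passed in the 3 comparisons, and no receptor probe changed its call. Probes near background, such as those of Cd6 in LAK, were detected on only some arrays of a group.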
